A study of Mus musculus with 48 samples.

Results

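The wall of the caecum, the blind pouch at the start of the large intestine, was followed through 32 genes of smooth muscle and extracellular matrix among the 3777 genes with a symbol in the caecum table. The rule that takes them reads only their symbols and no measured value. The pattern of symbols took in collagens, laminins, fibronectin, the matrix proteins Sparc, decorin and lumican, the contractile genes of smooth muscle, desmin, vimentin and the integrins. It found 15 smooth muscle genes, 12 matrix genes, 4 integrin subunits and Vim, read from 49 spots of 36 probes, and all 32 carried a transcript accession that RefSeq gives to the same symbol. Other genes of the pattern, such as Mylk, Bgn or the type IV collagens, had no row under their symbol in the caecum table and so were not analysed.

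Expression was measured on 16 one-colour arrays, 1 per mouse, in BALB/cOlaHsd mice that were 8 weeks old at day 0 and were gavaged with 500 µl a day for 30 days. The Chic mice (n = 3) were given a decoction of chicory root flour equal to 30 mg of root powder a day, the Fru mice (n = 3) fructose, the CGA mice (n = 3) chlorogenic acid and the STL mice (n = 3) sesquiterpene lactones, the lactones and chlorogenic acid being constituents of the root. Chic and Fru were set against Ctr1 (n = 2, water) and CGA and STL against Ctr2 (n = 2). For Ctr2 the labels give water. The methods name DMSO, the diluent of the CGA and STL solutions, in one place and drinking water in another. If DMSO was given, solvent and control group cannot be told apart in Ctr2 against Ctr1. No group carried an engineered allele. The labels tag 8 of the 16 mice as female while naming every source as male, and the methods give male mice. The female tag falls on Fru 2, Fru 3 and every CGA and STL mouse, and on no control, so by that tag sex and diet cannot be told apart in any CGA or STL value. The methods name colon for the sampling and caecum for the arrays, and here the label, caecum, was kept.

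Visceral smooth muscle contracts when myosin, switched on by phosphorylation of its regulatory light chains, pulls on actin filaments. Actins, myosin heavy chain, tropomyosins, calponins and transgelin make up this apparatus, and desmin filaments tie it together. Fibroblasts and muscle cells lay down the matrix around it, in which fibrillar collagens carry tension, small proteoglycans space the fibrils, and laminins form the basement membranes that epithelium and muscle grip through integrins.

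The arrays differed in brightness before normalization. The median deposited intensity ran from 186 to 1687 units, and 4 arrays (Chic 3, Fru 2, CGA 2 and STL 3) lay more than 0.5 on the log2 scale below the median of the 16, Fru 2 by the most. The lowest deposited value was 300 on the Ctr1 2 array and between -6 and 35 on the other 15. All values below are log2 intensities after quantile normalization between the 16 arrays, and a level is compared only within a gene, since probes differ in brightness. As the tissue was read in bulk, fewer cells of a type and less RNA per cell cannot be told apart. The table held 21 of 22 listed epithelial markers, 5 of 12 of leukocytes, 4 of 8 of fat cells, 2 of 16 of enteric neurons and glia and 10 of 11 of Paneth cells. It held none of the 3 listed for interstitial cells of Cajal, 8 for endothelium, 4 for mesothelium and 10 for skeletal muscle, so these cells could not be checked.

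No muscle or matrix gene passed the test in any comparison. In limma with Benjamini-Hochberg adjustment over the 3777 genes, 0 of the 32 members were called under Chic, Fru, CGA or STL, or between the control groups. Over all genes 0% were called under Chic, 0.0265% (1 gene, Gla, no member, named after its value was seen) under Fru, 0% under CGA, 0% under STL and 0% for Ctr2 against Ctr1. At an unadjusted p under 0.05 in limma there were 0 members under Chic beside 2.75% of all genes, 1 under Fru beside 7.12%, 2 under CGA beside 3.47%, 1 under STL beside 2.86%, and 0 for Ctr2 against Ctr1 beside 6.04%. These few tests fell on only a pair of genes, Actg2 and Myl12b. The intervals of the other members show what sizes could not be told from 0: the 95% interval for Acta2 under Chic ran from -0.69 to 0.48 and that for Col3a1 from -0.76 to 0.19.

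**Figure D1:**
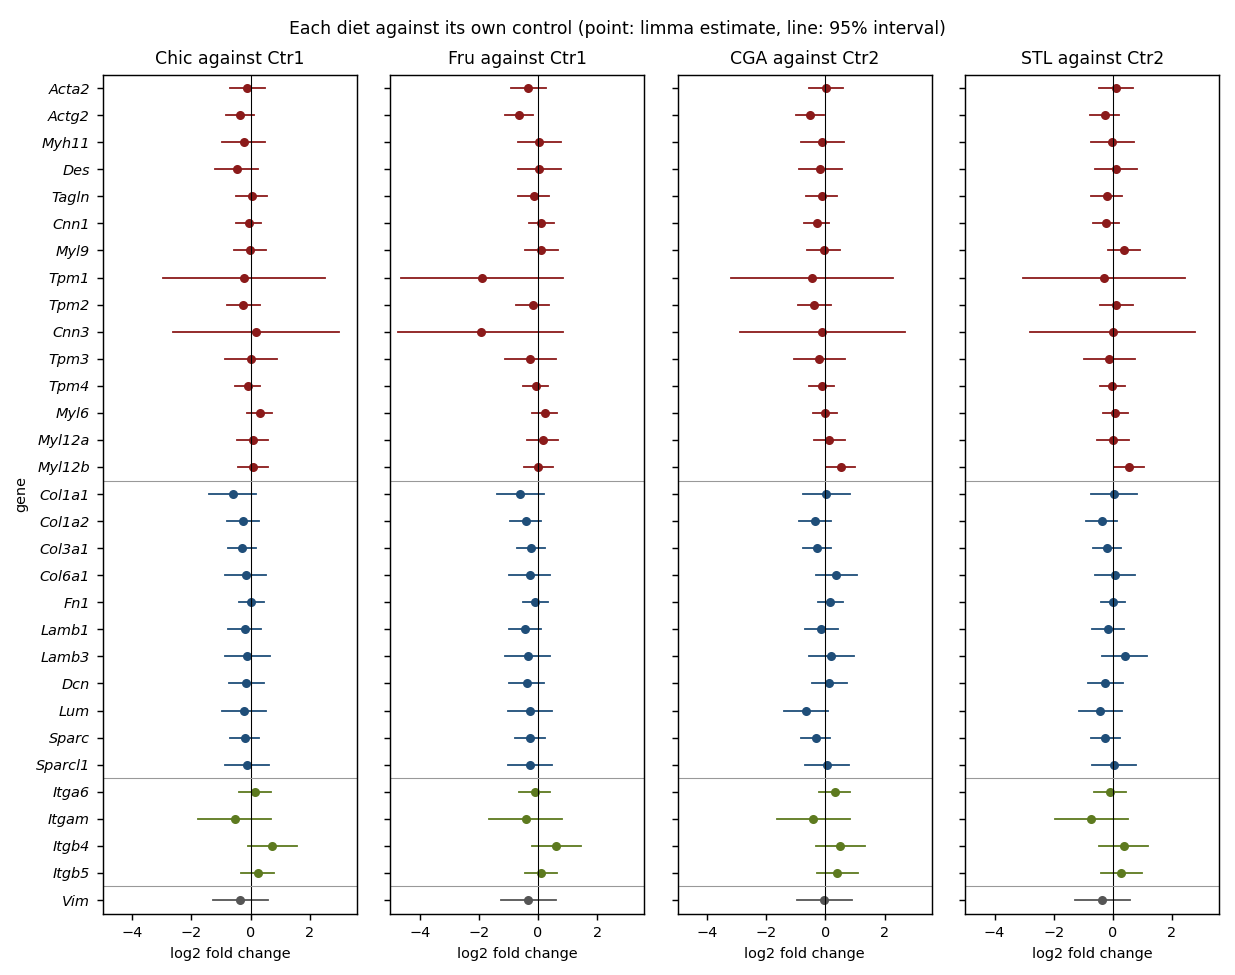
Log2 fold change of 31 of the 32 genes (rows, grouped into smooth muscle, matrix, integrins and Vim) under each diet against its own control, with the limma estimate as a point and its 95% interval as a line. The intervals of Actg2 under Fru and CGA and of Myl12b under CGA and STL leave out 0 before adjustment, and Cnn3 and Tpm1 have the widest lines.

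Actg2, the gamma actin that makes up the thin filaments of gut smooth muscle, had the smallest p of the members. Its log2 intensities were 12.39 and 12.23 in the Ctr1 mice, 12.22, 11.56 and 12.05 in the Chic mice and 11.72, 11.57 and 11.73 in the Fru mice. They were 11.87 and 12.01 in the Ctr2 mice, 11.64, 11.50 and 11.12 in the CGA mice and 11.91, 11.46 and 11.59 in the STL mice. The Fru mice lay below both of their controls with a gap, the CGA mice likewise, the highest Chic mouse lay just under the lower Ctr1 mouse, and the STL mice overlapped Ctr2. The log2 fold change was -0.64 ± 0.22 (SE) under Fru (unadjusted p = 0.0131, adjusted p = 0.585 in limma) and -0.52 ± 0.22 under CGA (unadjusted p = 0.0371, adjusted p = 0.9998). It was -0.36 ± 0.22 under Chic and -0.28 ± 0.22 under STL. Both Ctr2 mice themselves lay below both Ctr1 mice (-0.37 ± 0.24), and the comparisons under 1 control share its mice, so they are not independent of each other.

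Myl12b, which encodes a regulatory light chain of the myosin found in non-muscle as well as smooth muscle cells, was the one member with higher values at an unadjusted p under 0.05. It stood at 11.77 in both Ctr2 mice, at 12.33, 12.06 and 12.45 in the CGA mice and at 12.71, 12.14 and 12.09 in the STL mice, so each of the 6 treated mice lay above both controls. The Ctr1 mice read 12.01 and 11.67, the Chic mice 11.79, 12.18 and 11.81, and the Fru mice 12.08, 11.56 and 11.93, which overlap. The log2 fold change was 0.51 ± 0.23 under CGA (unadjusted p = 0.0476, adjusted p = 0.9998 in limma) and 0.54 ± 0.23 under STL (unadjusted p = 0.0361, adjusted p = 0.9991). It was 0.08 ± 0.23 under Chic and 0.01 ± 0.23 under Fru. The near equality of the Ctr2 mice stands beside an interval that runs from 0.01 to 1.01 under CGA, set by the spread in all 6 groups. Its neighbour in function, the light chain Myl12a, read 0.13 ± 0.25 under CGA.

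The other defining contractile genes overlapped with their controls under most diets. Acta2, the alpha actin of smooth muscle, read 12.04 and 12.02 in the Ctr1 mice, 11.86, 11.60 and 12.33 in the Chic mice and 11.74, 11.48 and 11.91 in the Fru mice. It read 11.38 and 12.17 in the Ctr2 mice, 11.64, 11.70 and 12.06 in the CGA mice and 11.92, 11.60 and 12.10 in the STL mice. The Fru mice lay under both controls (-0.32 ± 0.27, adjusted p = 0.925 in limma), and the Ctr2 pair alone spanned most of the range of all 16 mice. The spread between mice was wider than that between spots: the Acta2 probe sat on 10 spots of each array, whose SD within an array had a median of 0.19 (0.08 to 0.29), against a residual SD of 0.30 between mice. Des, the intermediate filament of muscle, had 5 spots with a median SD of 0.19 (0.06 to 0.51) and a residual SD of 0.39 between mice, and its highest mouse was Fru 2 at 8.53, on the dimmest array. Under Chic it read 7.54, 7.14 and 8.13 against 7.97 and 8.17 in Ctr1, with a log2 fold change of -0.47 and overlapping groups.

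Tagln, the actin-bundling transgelin, read 13.07 and 13.59 in the Ctr1 mice, 13.20, 13.23 and 13.68 in the Chic mice and 13.20, 13.11 and 13.25 in the Fru mice. It read 13.05 and 13.74 in the Ctr2 mice, 13.21, 13.18 and 13.39 in the CGA mice and 13.17, 12.95 and 13.45 in the STL mice, and no group stood clear of its control. Myh11, the myosin heavy chain of smooth muscle, ranged from 7.89 (CGA 1) to 9.38 (Fru 3) with folds between -0.23 (Chic) and 0.04 (Fru) on the log2 scale. Cnn1, the calponin of differentiated smooth muscle, was among the steadiest members, with a residual SD of 0.19 and log2 fold changes from -0.30 (CGA) to 0.11 (Fru). Myl9, the regulatory light chain of smooth muscle myosin, lay above both Ctr2 mice in all 3 STL mice, at 13.69, 13.46 and 13.33 against 13.23 and 13.02 (0.37 ± 0.26, adjusted p = 0.9991 in limma). Myl6, the essential light chain, lay above both Ctr1 mice in every Chic and Fru mouse, at 14.80, 15.03 and 14.86 and at 14.84, 14.80 and 14.80 against 14.76 and 14.42, with log2 fold changes of 0.31 ± 0.19 and 0.22 ± 0.19. On a second probe of Myl6 both diets overlapped Ctr1. It read 12.46, 12.36 and 11.79 (Chic) and 11.86, 12.36 and 11.26 (Fru) against 11.88 and 11.70, with log2 fold changes of 0.42 and 0.04.

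The large negative values of Cnn3 and Tpm1 under Fru rested on 1 array. Cnn3, the calponin also found outside muscle, read 3.28 on the Fru 2 array and 9.36 to 9.94 on the other 15, and Tpm1, an alpha tropomyosin, read 4.47 there and 8.85 to 10.48 elsewhere. The deposited intensities behind them were 1 and 2 units on that array. The log2 fold changes under Fru were -1.94 ± 1.30 and -1.90 ± 1.27, neither of which passed. Without Fru 2 the value of Cnn3 was 0.17. A second probe for each gene read otherwise under Fru, at 1.93 for Cnn3 and 1.04 for Tpm1. On the Ctr1 2 array these second probes stood at 301 units (Cnn3) and 308 units (Tpm1), close to that array's lowest value of 300. The second probe of Tpm1 read highest on the dim Fru 2 array, at 9.49. The pair of probes correlated at r = 0.02 for Cnn3, -0.69 for Tpm1, 0.60 for Tpm2 and 0.33 for Myl6 over the 16 arrays. Values of Cnn3 and Tpm1 therefore depend on the probe, and so do some values of Tpm2 and Myl6.

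**Figure D2:**
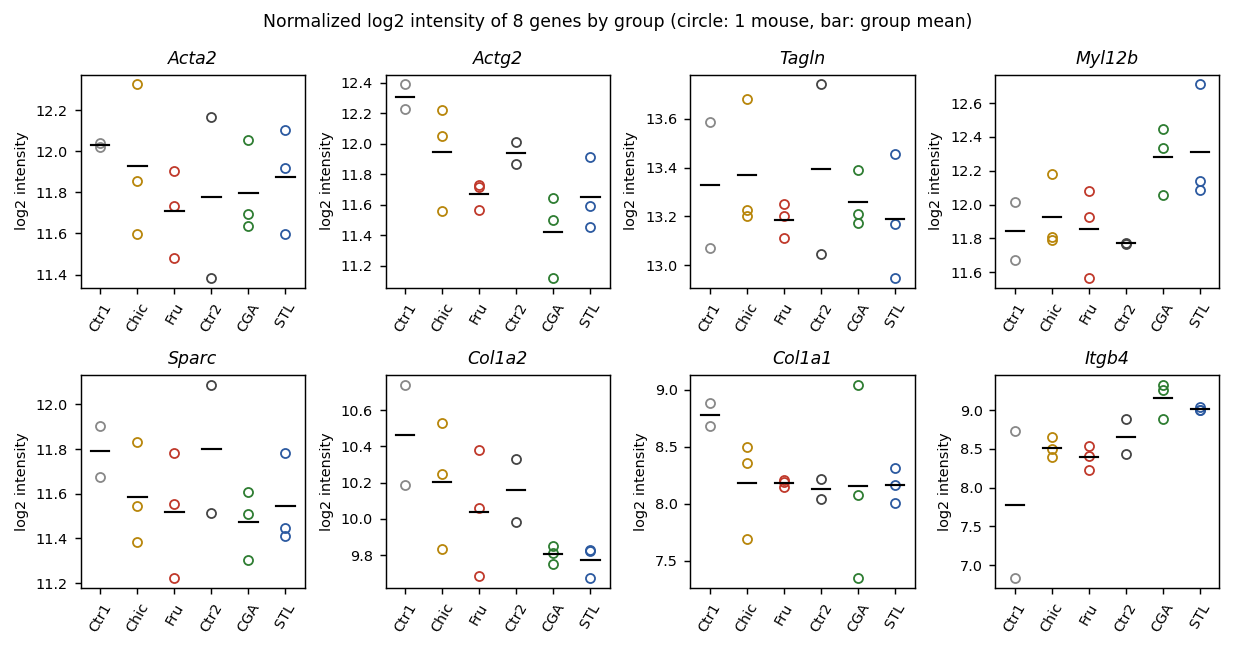
Normalized log2 intensity (y axis) of 8 genes by group (x axis), with a circle for each mouse and a bar for the group mean. Actg2 lies lower in the Fru and CGA mice than in their controls, Myl12b higher in the CGA and STL mice than in Ctr2, and the Ctr1 pair is split at Itgb4, at 8.73 and 6.83.

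Among the matrix genes, all 12 had negative log2 fold changes under Fru and 10 of 12 under Chic, and none passed the test. Their median was -0.28 under Fru and -0.19 under Chic, beside 0.01 and 0.03 over all genes. Both comparisons use the same Ctr1 pair, in which Ctr1 1 read highest of the 16 mice for 6 of the 12 genes (among them Col1a2, Col3a1 and Dcn). Under CGA 7 of 12 were positive with a median of 0.04, which was -0.13 without CGA 1 and -0.35 on the values as deposited, and under STL 6 of 12 with a median of -0.08, beside 0.04 and 0.03 over all genes. For Ctr2 against Ctr1 the median was -0.19 with 9 of 12 negative, beside 0.05, about the size of the value under Chic. Single mice moved these medians: under Chic the value was 0.05 without Ctr1 1 and -0.39 without Ctr1 2, and under Fru it was -0.59 without Ctr1 2 and -0.14 without Fru 2.

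Col1a1 and Col1a2 encode the chains of type I collagen, the main tensile fibre of the gut wall, and Col3a1 that of type III. Col1a1 read 8.88 and 8.68 in the Ctr1 mice, 8.50, 7.69 and 8.35 in the Chic mice and 8.18, 8.14 and 8.21 in the Fru mice. Both diets lay below both controls, with log2 fold changes of -0.60 ± 0.37 each (adjusted p = 0.9999 under Chic and 0.831 under Fru, limma). In the Ctr2 mice it read 8.22 and 8.04 and in the CGA mice 9.04, 8.08 and 7.34, the widest span of any group. Col1a2 read 10.74 and 10.19 in the Ctr1 mice, 9.98 and 10.33 in the Ctr2 mice, 9.75, 9.85 and 9.81 in the CGA mice and 9.83, 9.67 and 9.83 in the STL mice. All 6 treated mice on the Ctr2 side lay below both controls, with log2 fold changes of -0.35 ± 0.25 under CGA and -0.38 ± 0.25 under STL (adjusted p = 0.9998 and 0.9991 in limma). Col3a1 lay within a narrower band, from 10.01 to 10.87, with Ctr1 1 the highest.

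Lum, the small proteoglycan lumican that spaces collagen fibrils, read 9.31 and 9.05 in the Ctr2 mice and 8.55, 8.73 and 8.26 in the CGA mice, below both controls. Its log2 fold change of -0.66 ± 0.34 under CGA was the largest negative value of a matrix gene in any diet (unadjusted p = 0.0749, adjusted p = 0.9998 in limma), and under STL it was -0.42 ± 0.34. Dcn, the related proteoglycan decorin, stood at 0.12 ± 0.27 under CGA and did not follow it. Sparc, a collagen-binding glycoprotein, read 11.51 and 12.09 in the Ctr2 mice, 11.30, 11.51 and 11.61 in the CGA mice and 11.44, 11.41 and 11.78 in the STL mice. It read 11.68 and 11.91 in the Ctr1 mice, 11.54, 11.38 and 11.83 in the Chic mice and 11.55, 11.22 and 11.78 in the Fru mice, with values below 0 under each diet (-0.21 to -0.33) that no test separated from 0.

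Of the other matrix genes, Fn1 (fibronectin) had a residual SD of 0.18 and log2 fold changes between -0.09 under Fru and 0.17 under CGA. Col6a1, of the beaded type VI collagen, read 0.37 ± 0.32 under CGA and -0.29 ± 0.32 under Fru. The laminin chain Lamb1, part of most basement membranes, lay below both Ctr2 mice in all CGA and all STL mice (-0.14 and -0.17, each ± 0.26) and stood at -0.44 ± 0.26 under Fru. Lamb3, a chain of the laminin of epithelial anchorage, read 0.39 ± 0.35 under STL.

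The integrin Itgb4, which pairs with Itga6 in the hemidesmosomes of epithelium, gave the largest positive values, and they turned on 1 control array. It read 8.73 and 6.83 in the Ctr1 mice, 8.50, 8.39 and 8.66 in the Chic mice and 8.53, 8.23 and 8.41 in the Fru mice. The lower Ctr1 value came from 304 deposited units on the Ctr1 2 array, whose lowest value was 300. The log2 fold change was 0.74 ± 0.38 under Chic and 0.61 ± 0.38 under Fru. Without Ctr1 1 it was 1.71 (adjusted p = 0.00233) and 1.58 (adjusted p = 0.00424) in limma, and without Ctr1 2 it was -0.21 and -0.35 with no call, so the sign depended on which of the control mice stayed. On the Ctr2 side it read 8.44 and 8.88 in the controls, 9.26, 9.33 and 8.89 in the CGA mice and 9.0, 9.0 and 9.05 in the STL mice, above both controls in each (0.50 ± 0.38 and 0.36 ± 0.38, adjusted p = 0.9998 and 0.9991). Its partner Itga6 lay above both Ctr2 mice in the CGA mice, at 11.68, 11.69 and 11.63 against 11.25 and 11.45 (0.31 ± 0.25), and not in the STL mice. Itgam, the alpha M chain of myeloid cells and so a marker of leukocytes rather than of the wall, ranged from 8.18 to 10.57 and had the widest residual SD (0.71) after Tpm1 and Cnn3. Itgb5 had no value on the Ctr2 2 array, where the deposited intensity was not above 0, and its fit used 15 arrays, with log2 fold changes of 0.24 under Chic and 0.41 under CGA. Vim, the intermediate filament of mesenchymal cells, read -0.35 under Chic, -0.33 under Fru, -0.04 under CGA and -0.36 under STL, each ± 0.43.

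Counts of genes whose groups did not overlap were read against those of the whole table. Under Chic 2 of 32 members lay above and 2 below both controls (6.25% each), beside 9.19% and 6.52% of all genes. Under Fru it was 1 above (3.12%) and 4 below (12.5%: Acta2, Actg2, Col1a1 and Col6a1), beside 10.4% and 7.75%. Under CGA 3 of 31 lay above (9.68%) and 6 below (19.4%: Actg2, Cnn3, Col1a2, Lamb1, Lum and Tpm1), beside 11.3% and 6.87%. Under STL it was 3 above (9.68%) and 2 below (6.45%), beside 11.1% and 6.04%. Between the controls 1 of 31 was higher in Ctr2 (3.23%) and 8 were lower (25.8%), beside 19.9% and 13.6%. The share below exceeded that of all genes by few genes under Fru, and by more under CGA and between the control groups. No test was made of this. Of the 6 below under CGA, Cnn3 and Tpm1 depend on the probe, and their second probes read 0.42 and -0.07. With 3 mice against 2 an exact permutation test of 1 gene cannot give a p under 0.1.

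The smooth muscle genes and the matrix genes were then set against each other. The median log2 fold change of the 15 smooth muscle genes was -0.06 under Chic, -0.08 under Fru, -0.13 under CGA and -0.01 under STL, and -0.07 for Ctr2 against Ctr1. These medians lay close to 0, and that under Fru was 0.08 without Fru 2. For the 9 genes most restricted to muscle (Acta2, Actg2, Cnn1, Des, Myh11, Myl9, Tagln, Tpm1 and Tpm2) it was -0.23, -0.14, -0.17, -0.02 and -0.20. Of these 9, 8 were negative under Chic, 5 under Fru, 8 under CGA, 5 under STL and 7 for Ctr2 against Ctr1. Of the 15, it was 9, 8, 12, 8 and 9 in that order. Per mouse, the median deviation of the smooth muscle genes minus that of the matrix genes was -0.26 and 0.08 in the Ctr1 mice, -0.13, 0.06 and 0.05 in the Chic mice and 0.03, 0.15 and 0.10 in the Fru mice. It was 0.07 in both Ctr2 mice, -0.10, 0.13 and 0.21 in the CGA mice and 0.15, 0.17 and 0.08 in the STL mice. The STL mice were the only diet group that lay wholly above its control by this measure, and STL 3 did so by less than the SD of 0.05 within STL. With the 9 muscle-restricted genes in place of the 15, STL 2 stood at -0.14, below both Ctr2 mice (0.06 and 0.10), and the groups overlapped.

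Other genes of the same kinds were taken from lists, and no test compared them with the members. Of 11 measured genes of the smooth muscle apparatus and its regulators (Smtn, Synpo2, Flna and others), 0 were called under any diet in limma, and their medians were -0.04, -0.19, -0.01 and -0.07 under Chic, Fru, CGA and STL. At an unadjusted p under 0.05 only Hspb1, a small heat shock protein not confined to muscle, stood out, at -0.65 ± 0.26 under STL (adjusted p = 0.9991). Of 11 other matrix genes 0 were called, with medians of -0.11, -0.24, -0.03 and -0.03. Timp2, an inhibitor of matrix metalloproteinases, read -0.56 ± 0.25 under STL and Serpinh1, the collagen chaperone, 1.26 ± 0.54 under Fru, both with an unadjusted p under 0.05 (adjusted p = 0.9991 and 0.655). Hspb1, Timp2 and Serpinh1 were named after their values were seen.

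**Figure D3:**
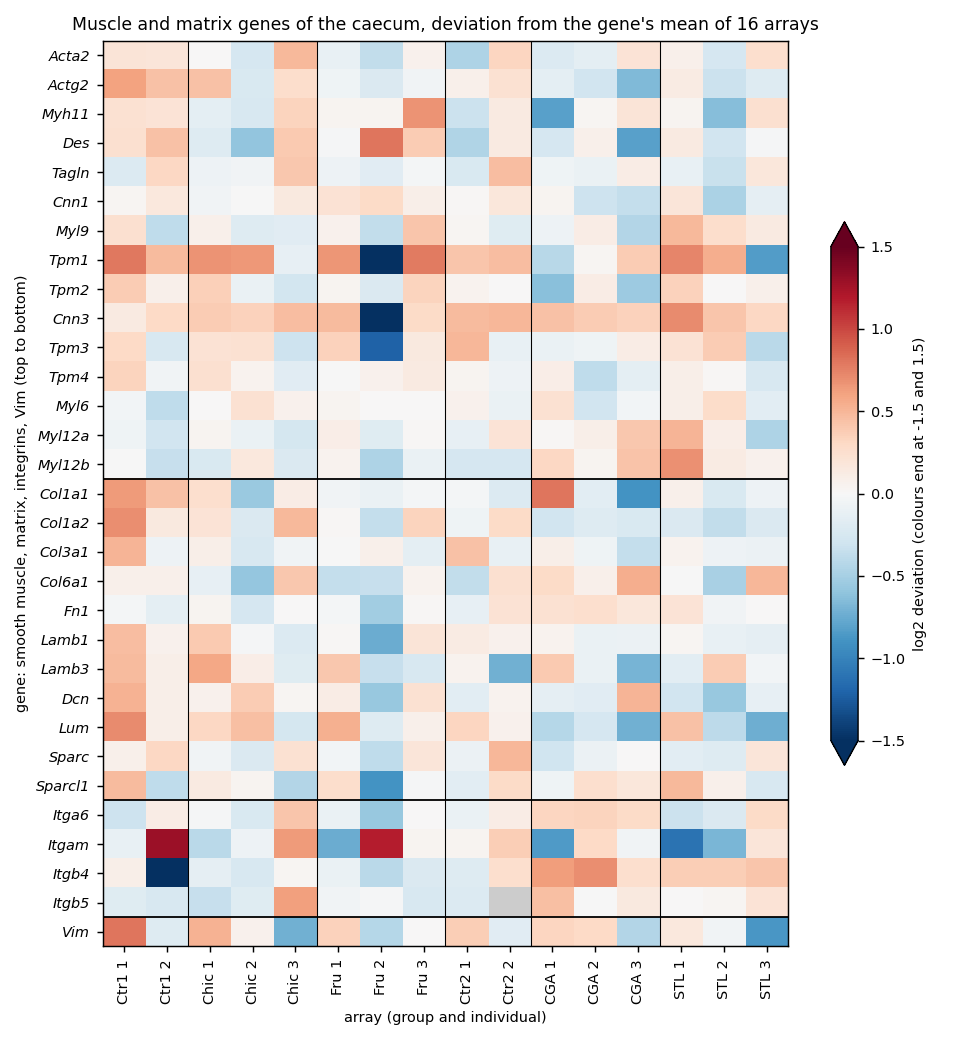
Deviation of 31 of the 32 genes (rows) each from its own mean over the 16 arrays (columns, grouped by diet) on the log2 scale, with red above and blue below the mean and grey for a missing value. The darkest fields are Cnn3 and Tpm1 on the Fru 2 array and Itgb4 on the Ctr1 2 array.

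Correlations across the 16 mice were set beside those of all pairs of genes, with no test of the difference. The median Pearson r was 0.18 over the 180 pairs of a smooth muscle with a matrix gene, 0.13 over the 105 smooth muscle pairs and 0.29 over the 66 matrix pairs, beside 0.02 over all pairs of the table. An r over 0.5 was found in 18.9%, 9.52% and 22.7% of these pairs, beside 10.02% of all pairs. After the group means were taken away the medians were 0.26, 0.14 and 0.30. The genes share the normalization and the RNA of each mouse, so these are descriptions. The list medians of smooth muscle and matrix correlated at r = 0.75 (rho = 0.76, n = 16), and at 0.41 without Fru 2 and Ctr1 1, the mice farthest from the middle of the muscle values, so much of it rested on them. With the brightness of the arrays as deposited, the smooth muscle median correlated at r = 0.58 and the matrix median at 0.55, and at 0.10 and 0.18 without the same mice.

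Pairs of 13 defining genes were then tested. Of 78 pairs, 5 had an adjusted p under 0.05 in a two-sided permutation test with 100000 resamples, all 5 positive and all 5 also by rank correlation. The test was not run on the other pairs of the table, so the 5 have no such share beside them. Of the 7130976 pairs of all genes, 714288 had an r over 0.5 and 563716 an r below -0.5. Acta2 correlated with Sparc at r = 0.80 (p = 0.00028, adjusted p = 0.00806 by permutation, rho = 0.83) and at 0.86 without the 2 mice farthest from the median of Acta2. Tagln correlated with Sparc at r = 0.79 (adjusted p = 0.00806 by permutation, rho = 0.68) and Acta2 with Tagln at r = 0.78 (adjusted p = 0.00806 by permutation, rho = 0.70). Without the 2 farthest mice these were 0.65 and 0.69. With the arrays aligned at the 75th percentile in place of quantile normalization they were 0.49 and 0.56, and neither passed (adjusted p = 0.166 and 0.102 by permutation). Within groups, with the group means taken away, the same 3 pairs stood at 0.90, 0.84 and 0.83. In the Chic, Fru, CGA and STL groups alike, mouse 3 read highest for each of Acta2, Tagln and Sparc. These pairs thus also follow the sample number, while the permutation shuffled the mice without regard to it. What the number stands for is not labelled, and its part in these correlations was not tested. Myh11 kept company with Acta2 and Sparc at r = 0.64 and 0.63, neither past the threshold (adjusted p = 0.0691 for each by permutation).

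Actg2 kept other company. It correlated with Col1a2 at r = 0.77 (adjusted p = 0.00838 by permutation, rho = 0.78) and with Col1a1 at r = 0.70 (adjusted p = 0.0435 by permutation, rho = 0.76), and at 0.72 and 0.43 without Ctr1 1 and CGA 3, so the relation with Col1a1 rests in part on those mice. With group means taken away they were 0.54 and 0.80. The actins Acta2 and Actg2 correlated at r = 0.35 with each other (adjusted p = 0.407 by permutation), and Tagln and Myl9 at -0.47 (adjusted p = 0.237 by permutation). Without the 4 dim arrays, where 12 mice remain, the 5 pairs kept r of 0.67 to 0.77 and none passed the threshold.

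**Figure D4:**
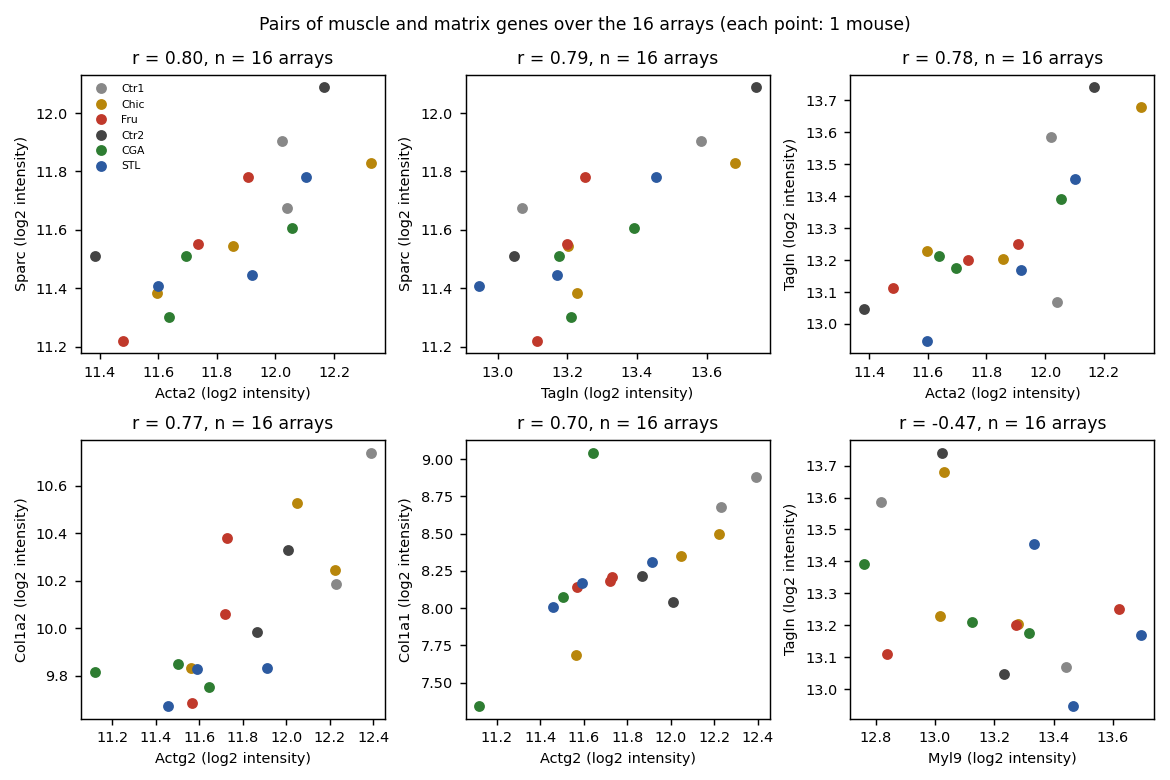
Log2 intensities of 6 pairs of genes, 1 point per mouse coloured by group (n = 16). Acta2, Tagln and Sparc line up with one another and Actg2 with Col1a2, with mice of every group along the line, while Myl9 and Tagln tend to opposite directions.

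Over all 32 members, the highest correlation was that of Cnn3 with Tpm1, r = 0.95, which was 0.0035 without Fru 2. Lamb1 was nearest to the mean of the other matrix genes (r = 0.88, and 0.81 without Fru 2), followed by Actg2 (0.72 and 0.79) and Tpm1 (0.67 and 0.35). For the mean of the other smooth muscle genes the nearest were Tpm1, Lamb1 and Cnn3 (0.87, 0.83 and 0.75), which stood at 0.49, 0.53 and 0.09 without Fru 2. Acta2 also followed Col6a1 (r = 0.77, and 0.75 without Fru 2). Itgam had its lowest correlation with Myl12b (r = -0.75, and -0.69 without Fru 2) and stood at 0.48 with Tagln and 0.53 with Des.

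**Figure D5:**
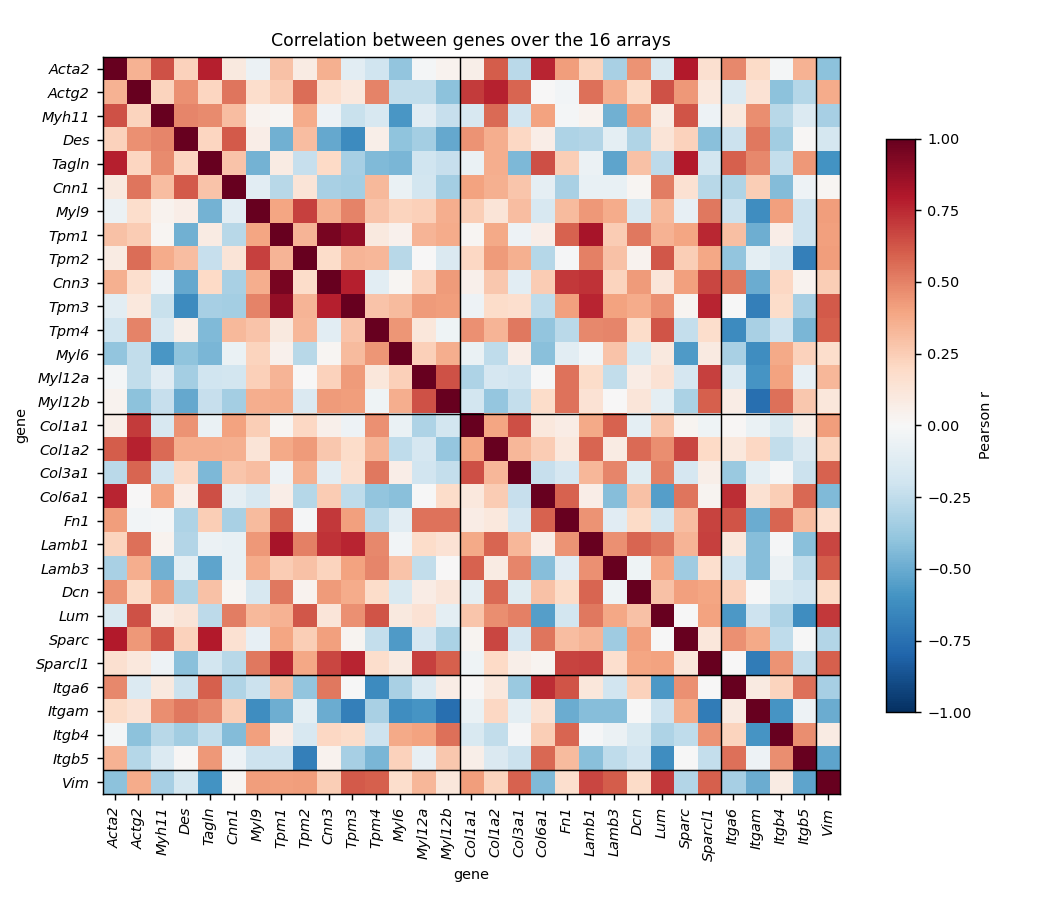
Pearson r between 31 of the 32 genes over the 16 arrays, with lines between smooth muscle genes, matrix genes, integrins and Vim. Red blocks join Acta2, Tagln and Sparc, and Actg2 with the type I collagens, while the block of Tpm1, Cnn3 and Tpm3 weakens without the Fru 2 array.

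The start regions of Acta2, Sparc and Col1a2, each in a pair past the threshold, and of Myl9 are shown. Myl9 did not follow the others (r = -0.06 with Acta2, -0.08 with Sparc and 0.13 with Col1a2). Start regions were searched because serum response factor drives many contractile genes through the CArG box, a stretch of A and T framed by C and G pairs. RefSeq's table for GRCm38.p6 held start regions for 21 of the 32 members (24 entries), Acta2 and Sparc among them, and the 250 bases before the start were searched. The sequences are given 5′ to 3′ on the gene's strand, with CArG boxes with up to 1 mismatch and TATAAA on either strand in capitals. Acta2 lies at chr19:34255374-34255623 (minus strand), Sparc at chr11:55420081-55420330 (minus strand), Col1a2 at chr6:4505368-4505617 (plus strand) and Myl9 at chr2:156775214-156775463 (plus strand).
Acta2: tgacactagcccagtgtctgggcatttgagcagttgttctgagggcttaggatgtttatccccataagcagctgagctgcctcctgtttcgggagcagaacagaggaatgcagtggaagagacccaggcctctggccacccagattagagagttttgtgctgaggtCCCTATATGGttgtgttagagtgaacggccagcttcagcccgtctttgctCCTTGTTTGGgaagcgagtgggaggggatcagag
Sparc: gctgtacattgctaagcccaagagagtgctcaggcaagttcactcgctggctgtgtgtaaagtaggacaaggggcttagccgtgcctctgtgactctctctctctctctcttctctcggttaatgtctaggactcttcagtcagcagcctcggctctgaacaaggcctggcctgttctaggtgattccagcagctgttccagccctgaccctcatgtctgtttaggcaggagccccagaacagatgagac
Col1a2: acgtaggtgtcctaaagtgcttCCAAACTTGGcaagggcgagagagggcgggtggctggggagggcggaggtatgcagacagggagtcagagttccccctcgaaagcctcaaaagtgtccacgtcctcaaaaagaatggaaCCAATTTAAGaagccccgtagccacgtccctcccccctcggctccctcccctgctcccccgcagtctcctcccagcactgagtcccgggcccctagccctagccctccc
Myl9: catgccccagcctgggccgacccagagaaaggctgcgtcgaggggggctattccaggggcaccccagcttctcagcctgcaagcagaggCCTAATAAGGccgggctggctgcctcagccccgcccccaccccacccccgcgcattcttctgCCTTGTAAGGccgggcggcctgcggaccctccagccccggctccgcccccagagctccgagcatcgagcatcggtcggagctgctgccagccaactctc
A CArG box without mismatch lay in 2 of the 24 entries, of Myl9 (161 bases before the start) and Myl6 (50 bases), beside 1.47% of all 32851 start regions. With up to 1 mismatch it lay in 8 of 24 beside 18.6%, among them Acta2 (84 and 34 bases before the start) and Col1a2 (228 and 109 bases). The window of Sparc, the closest companion of Acta2 in these mice, held neither motif. TATAAA on either strand lay in 2 of 24 (Col3a1 and Vim) beside 12.4%, CCAAT on either strand in 7 beside 33.8%, and GGGCGG on either strand in 14 beside 32.7%, some of these overlapping each other. A match is only a run of letters and was not tied to any value.

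Markers of other cells were set beside these results. The epithelial list had medians of 0.03, -0.06, 0.05 and -0.01 under Chic, Fru, CGA and STL, and its median deviation correlated with that of the smooth muscle genes at r = 0.52, which was -0.07 without Fru 2 and Ctr1 1. The 10 Paneth cell genes, mostly alpha-defensins, summed to between 1500 and 203165 linear units in single mice. Under CGA all 10 lay below both Ctr2 mice, beside 6.87% of all genes, with a median of -6.07. In limma 0 of the 10 were called under any diet, and 5 had an unadjusted p under 0.05 under CGA. Mice of the same control group differed widely as well, with a median deviation of -2.76 in Ctr1 1 and 4.77 in Ctr1 2 over these genes. Their median deviation correlated with that of the smooth muscle genes at r = -0.0045 and with that of the matrix genes at -0.14. The 5 leukocyte genes, with the member Itgam among them, had medians of -0.15, -0.26, -0.37 and -0.46 under Chic, Fru, CGA and STL. Of the 5, 2 were positive under each diet. The 4 fat cell genes had medians of -0.66, -0.25, -0.05 and -0.37 in that order, and no gene of the leukocyte or fat cell list was called. The part of these cells in the muscle and matrix values was not tested.

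The effects of the diets were also set against each other. Over the 6 differences between pairs of diets, each diet taken against its own control, 0 of 3777 genes and 0 of the 32 members were called in limma. At an unadjusted p under 0.05 there was 1 member, the beta tropomyosin Tpm2, whose effect under CGA minus that under STL was -0.50 ± 0.23 (adjusted p = 0.9997 in limma). It read 10.33, 11.07 and 10.41 in the CGA mice, 11.30, 10.97 and 11.04 in the STL mice and 11.01 and 10.96 in the Ctr2 mice, with CGA 2 apart from CGA 1 and CGA 3. A second probe of Tpm2 read -0.28 under CGA and -0.25 under STL, beside -0.38 and 0.12 for the probe used. The difference thus depends on the probe. The members varied within groups as other genes did, with a median residual SD of 0.29 beside 0.30 over all genes. Steadiest were Myl6, Fn1 and Tpm4 (0.18, 0.18 and 0.19), and most variable Cnn3, Tpm1 and Itgam (1.64, 1.60 and 0.71).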

How the data were processed

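RNA of 16 caecum samples was hybridised to one-colour Agilent Whole Mouse Genome arrays. The deposited values were spot intensities, read by the authors with GenePix Pro by the methods and with Agilent Feature Extraction by the submitters' notes. Quantile normalization is stated, yet the deposited array medians differ, so the intensities were taken as not normalized. The table held 6214 rows, of which 227 control features and 878 rows without a symbol were not used here. The 23 values at or below 0 were set missing. Log2 values were quantile normalized between the 16 arrays, spots of a probe were averaged, and the brightest probe stood for a gene. The comparisons were fitted in limma 3.58.1 (R 4.3.3) with all 6 groups in 1 fit and a two-sided moderated test, and p-values were Benjamini-Hochberg adjusted over 3777 genes with a threshold of 0.05. The analysis was tested on simulated data. With 2 or 3 mice a group the number of arrays limits the precision. Figures were drawn in Python 3.11.15 with matplotlib 3.10.9. The members and lists were chosen with earlier results of these data known. Values of 1 matrix gene are not reported here, though it is counted in the totals and medians. Named genes were any member called, the measured genes of a list of defining muscle and matrix genes, up to 5 members in each direction per diet by moderated statistic, the 3 members of largest and the 3 of smallest residual SD, and up to 3 members most correlated with the mean of each list. Alternatives covered the scaling (none, or alignment at the 75th percentile), a filter on dim genes, the mean of all probes, a trended robust prior, array weights, pooled controls, fits on 2 groups alone, a replicate block and arrays left out.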

Additional observations from a re-analysis of the deposited data

How the results depend on the processing

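Of the values recomputed under other settings, 1927 counted as the same, 63 moved, 31 reversed, 21 weakened and 6 strengthened. For named genes and pairs, the same meant an unchanged direction and side of the threshold. A median counted as the same if it shifted by less than the SD within groups (0.11 for smooth muscle, 0.16 for matrix), even where its sign changed. The matrix median under CGA changed sign in 8 of 28 settings and counted as moved in 4. Counts and median correlations had margins of their own. The counts of members with no overlap given below have no share of all genes beside them, as none was computed. Groups of fewer mice overlap less often for any gene, so these counts are not read as results about the members. Where no value below shows it the cause was not tested. Members called stayed at 0 under every setting but 1: without Ctr1 1, Itgb4 was called under Chic, Fru and for Ctr2 against Ctr1 (0 to 1 over single arrays left out, 1.71, 1.58 and 1.85). On the values as deposited, where array brightness stays in, the smooth muscle medians were -0.17, -0.68, -0.43 and -0.35 under Chic, Fru, CGA and STL and the matrix medians -0.92, -0.35 and -0.49 under Fru, CGA and STL. Members with no overlap then numbered 1, 1, 4 and 1, and 1 for Ctr2 against Ctr1. The median r of muscle with matrix was 0.90, of muscle 0.87 and of matrix 0.93, all 78 defining pairs passed, and reversed values were Itgb4 -0.11 (Chic), Itgb4 -0.86, Myl6 -0.20, Myl12a -0.37, Cnn1 -0.26 and Myl9 -0.30 (Fru), Itgb5 -0.10 (CGA), and Lamb3 -0.065 (STL). After alignment at the 75th percentile, Itgb4 stood at -0.015 (Chic) and -0.35 (Fru), 8 defining pairs passed, and Tagln with Sparc (r = 0.49) and Acta2 with Tagln (r = 0.56) did not. With genes below the 25th percentile left out the matrix median under CGA was -0.14 and members with no overlap between the controls numbered 5. With Ctr1 and Ctr2 pooled it was -0.17, and members with no overlap numbered 0 under Chic and 1 under Fru. Without the 4 dim arrays, members with no overlap numbered 10 under Chic and 12 under STL, where fewer mice remain, the smooth muscle median under Fru was 0.080, Itgb5 and Itga6 stood at -0.054 and -0.023 (Chic) and Cnn3 at 0.16 (Fru), 0 defining pairs passed, and r was 0.73, 0.77, 0.67, 0.74 and 0.70 for Acta2 with Sparc, Tagln with Sparc, Acta2 with Tagln, Actg2 with Col1a2 and Actg2 with Col1a1. Alternatives chosen after seeing the data were these. With deposited values below 10 set missing, the smooth muscle median under Fru was 0.030 and Cnn3 0.17. Without Ctr1 2 and Fru 2, members with no overlap numbered 20 (Chic), 24 (Fru) and 21 (between controls), with smooth muscle medians of -0.24 (Chic) and -0.26 (controls), matrix medians of -0.39 and -0.45, Itgb4 at -0.21 (Chic), -0.26 (Fru) and -0.070 (controls) and Cnn3 at 0.25 (Fru). With the 9 muscle-restricted genes alone, the smooth muscle median was -0.23 under Chic and -0.20 between the controls.

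With single arrays left out, members with no overlap ranged from 4 to 20 (Chic), 5 to 20 (Fru), 9 to 20 (CGA), 5 to 16 (STL) and 9 to 22 (between controls). Each highest count came without a control mouse, which leaves 1 in that control group, and the share of all genes was not computed. The smooth muscle medians ranged from -0.25 to 0.0057, -0.20 to 0.081, -0.33 to -0.10, -0.16 to 0.089 and -0.26 to -0.036 in that order. The matrix medians ranged from -0.39 to 0.045 (Chic), -0.59 to -0.14 (Fru), -0.13 to 0.041 (CGA) and -0.46 to -0.00060 (between controls). The r of Actg2 with Col1a2 ranged from 0.69 to 0.82 and with Col1a1 from 0.57 to 0.89, the latter losing its call in 11 of 16 cases. Reversed values were, without Ctr1 1, Itga6 -0.054, Col3a1 0.00088 and Col1a2 0.017 (Chic) and Itga6 -0.10 (controls), and without Ctr1 2, Itgb4 -0.21 (Chic), Itgb4 -0.35 and Myl9 -0.20 (Fru) and Itgb4 -0.070 (controls). Others were Itgb5 -0.056 and Itga6 -0.022 without Chic 3, Cnn3 0.17 without Fru 2, Myl9 -0.073 without Fru 3 and Fn1 -0.035 without Ctr2 2. The other ends of these ranges were 0.43 for Itgb5, 0.37 for Itga6, -0.58 for Col3a1 and -0.54 for Col1a2 (Chic), 0.43 for Myl9 and -3.03 for Cnn3 (Fru), and 0.31 for Fn1 and 0.32 for Itga6 (controls).

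With the replicate block, 0 members were called in any comparison, and the medians under Fru were -0.15 for smooth muscle and -0.29 for matrix. Samples of the same number correlated at a median r of 0.19 over 36 pairs (21 over 0.1) and samples of other numbers at -0.10 over 70 pairs, and since not every pair was over 0.1 and the labels tie no number to a litter or day, the block was kept as an alternative. Faint spots on the dimmest array and a floor of 300 units on the Ctr1 2 array limit what low values can show.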
